A study of Mus musculus with 12 samples.

Results

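The genes described here are the glucose transporter Slc2a1 and the 9 glycolysis enzyme genes Hk2, Pfkp, Aldoa, Aldoc, Pgk1, Eno1, Eno3, Pkm and Ldha. They were chosen by name, for their place in the pathway, and make up 10 of the 53458 genes to which the transcripts were assigned. All 10 passed the filter on low counts that left 18095 genes for testing. Aldoa with Aldoc, and Eno1 with Eno3, are isozyme pairs.

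Glycolysis converts glucose to pyruvate in the cytosol. Glucose enters through transporters of the GLUT family, a chain of enzymes phosphorylates, rearranges and splits the sugar, and lactate dehydrogenase reduces pyruvate to lactate so that the chain can go on. Dendritic cells are known to raise their glycolytic flux after activation through innate receptors, and type 1 conventional dendritic cells (cDC1) are the subset best known for cross-presenting antigen to CD8 T cells. Several steps are served by isozymes, enzymes of the same reaction encoded by different genes, whose use differs between tissues.

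RNA-seq was performed on cDC1 from mouse inguinal lymph nodes in 4 groups of 3 libraries each. Tumor-CD40 came from mice with a subcutaneous KPC tumor and given a CD40 agonist, Tumor-NoCD40 from mice with the tumor and no agonist, NoTumor-CD40 from mice with the agonist and no tumor, and NoTumor-NoCD40 from mice with neither. KPC is the usual name of a mouse pancreatic cancer model, and CD40 is a receptor through which T cells license dendritic cells. No strain, age, sex, dose, time or sort gate is given in the labels. It is not stated there if replicates were separate animals, so p-values measure the spread between these samples only.

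Estimated counts summed to between 22855143 and 27163393 per library. The cDC1 label was checked against 14 marker genes such as Xcr1, Batf3 and Ly75, and all 14 were detected in every library. Their summed levels in CPM, counts scaled to the total of the library, were 4940 to 6410 in Tumor-CD40, 3090 to 12300 in Tumor-NoCD40, 4050 to 9110 in NoTumor-CD40 and 8010 to 10900 in NoTumor-NoCD40. The 14 did not move alike. Xcr1 was at 49.5 CPM in NoTumor-CD40 replicate 3 and at 780 in NoTumor-NoCD40 replicate 2. In the same libraries Ly75 was at 779 and 276 CPM and Batf3 at 161 and 99.3 CPM. By group, 3 of the 14 were higher in NoTumor-CD40 than in NoTumor-NoCD40. Transcripts of 14 genes that mark mature dendritic cells, such as Ccr7 and Cd274, summed to 11300 to 14300 CPM in Tumor-CD40, 5750 to 18400 in Tumor-NoCD40, 12600 to 28600 in NoTumor-CD40 and 4530 to 10600 in NoTumor-NoCD40. The 10 B cell genes held 756 to 2120 CPM in Tumor-CD40, 72.2 to 160 in Tumor-NoCD40, 88.5 to 255 in NoTumor-CD40 and 45.6 to 104 in NoTumor-NoCD40. Libraries of the same group thus differed in these markers, and in a bulk library fewer cells of a type cannot be told apart from less RNA per cell.

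Levels of different genes were compared as TPM, in which transcript abundance is scaled by transcript length as well as depth. These levels sum all transcripts of a gene, coding or not. Transcripts annotated as retained introns held 53.6% of the TPM of Eno1, whose coding transcript Eno1-202 had a mean of 39.6 TPM. The place of Eno1 in the order thus rests partly on noncoding transcripts. Over the 12 libraries Aldoa was highest with a mean of 235 TPM (151 to 390), before Eno1 with 177 (107 to 245), Pkm with 160 (135 to 203), Ldha with 146 (75.2 to 198) and Eno3 with 127 (59.0 to 318). Pgk1 followed with a mean of 82.3 TPM (69.1 to 93.8) and Pfkp with 46.6 (28.6 to 67.9). Hk2 with 8.09 TPM, Aldoc with 6.94 and Slc2a1 with 6.32 were the lowest. The ranges of neighbours in this order overlapped, except that Pgk1 lay above Pfkp and Pfkp above Hk2 in 12 of 12 libraries. The 10 genes together held 998 ± 68.1 TPM in Tumor-CD40, 1080 ± 102 in Tumor-NoCD40, 972 ± 70.8 in NoTumor-CD40 and 925 ± 49.2 in NoTumor-NoCD40 (SD, n = 3 each), and these sums overlapped between all groups but Tumor-NoCD40 and NoTumor-NoCD40.

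The genes differed more in how much they varied than their sum did. The coefficient of variation of CPM over the 12 libraries was 63.1% for Eno3, 55.5% for Aldoc and 55.4% for Hk2, between 16.1% and 28.7% for Ldha, Slc2a1, Aldoa, Eno1, Pfkp and Pgk1, and 10.8% for Pkm. Comparisons between groups were made on the counts, with log2 fold changes from edgeR's quasi-likelihood test, given ± standard error, and p-values adjusted by Benjamini-Hochberg over all 18095 genes. A gene is said to have risen or fallen where the adjusted p was under 0.05.

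**Figure D1:**
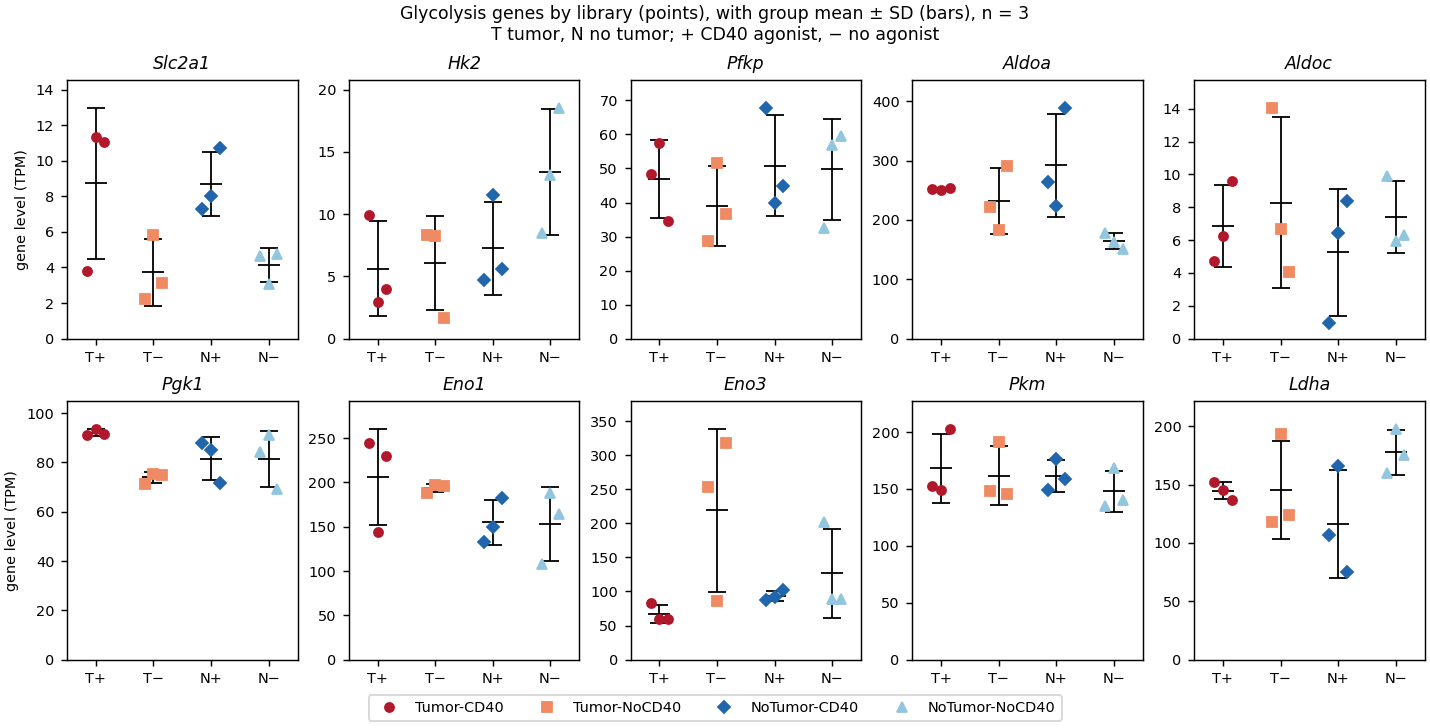
Level of each of the 10 genes in TPM (vertical axis, its own linear scale in each panel) in the 12 libraries, by group from left to right Tumor-CD40 (T+), Tumor-NoCD40 (T−), NoTumor-CD40 (N+) and NoTumor-NoCD40 (N−); points are libraries and bars are group means with SD. Eno3 lies between 59.0 and 82.7 TPM in Tumor-CD40, below every other library, while the groups overlap in Pkm.

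Of the 10 genes, Eno3 was the one that changed between groups in edgeR's test. It fell with the CD40 agonist in tumor-bearing mice and over both tumor states together, while none of the other 9 passed the threshold in any of the 6 comparisons. Eno3 encodes beta enolase, the enolase form that predominates in skeletal muscle, and Eno1 encodes alpha enolase, the widespread form. Both turn phosphoglycerate into phosphoenolpyruvate. Eno3 (ENSMUSG00000060600) lies at chr11:70657202-70662513 on the plus strand of GRCm38.

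Eno3 stood at 105, 67.6 and 75.4 CPM in Tumor-CD40 and at 359, 132 and 368 CPM in Tumor-NoCD40. In mice without tumor it stood at 136, 110 and 107 CPM in NoTumor-CD40 and at 292, 162 and 121 CPM in NoTumor-NoCD40. All 3 Tumor-CD40 libraries lay below all 3 Tumor-NoCD40 libraries, as did 5.41% of all genes, and also below all 3 NoTumor-CD40 libraries, as did 6.2%, whereas NoTumor-CD40 and NoTumor-NoCD40 overlapped. The level in TPM had the same order of groups, 67.0 ± 13.6 in Tumor-CD40, 219 ± 120 in Tumor-NoCD40, 93.6 ± 7.48 in NoTumor-CD40 and 126 ± 65.5 in NoTumor-NoCD40 (SD, n = 3 each). The spread was wide in both groups without agonist, where 1 or 2 libraries each were far above the rest.

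In tumor-bearing mice the log2 fold change of Eno3 with the agonist was −1.80 ± 0.37, with a 95% interval of −2.59 to −0.999 (edgeR, Benjamini-Hochberg adjusted p = 0.044). Among all genes tested, 0.685% passed the threshold in this comparison, 116 higher and 8 lower, so that genes lower with the agonist made up 0.0442%. Averaged over both tumor states the change was −1.25 ± 0.26, with an interval of −1.81 to −0.70 (edgeR, Benjamini-Hochberg adjusted p = 0.0202), where 2.51% of all genes passed and 0.343% passed in this direction. Without tumor it was −0.70 ± 0.36 and did not pass (edgeR, Benjamini-Hochberg adjusted p = 0.314). The difference between the agonist's effects with and without tumor was −1.09 ± 0.51 and did not pass either (edgeR, Benjamini-Hochberg adjusted p = 0.513), so the effects are not shown to differ.

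The Eno3 call in tumor-bearing mice was past the threshold in 8 of 19 other settings, with log2 fold changes of −2.14 to −1.52 and adjusted p of 0.000312 to 0.341 across edgeR, DESeq2 and limma. It was not past the threshold with limma on log2(TPM + 1) (−1.52, Benjamini-Hochberg adjusted p = 0.336) or with edgeR's legacy dispersion (adjusted p = 0.0732). Leaving out 1 library ended the call in 8 of 12 fits: without Tumor-CD40 replicate 1 (edgeR, Benjamini-Hochberg adjusted p = 0.0775), 2 (0.161) or 3 (0.21), Tumor-NoCD40 replicate 1 (0.183) or 3 (0.129), NoTumor-CD40 replicate 1 (0.0689) or 3 (0.0541), or NoTumor-NoCD40 replicate 2 (0.0659). In the averaged comparison it ended with limma (−0.92, Benjamini-Hochberg adjusted p = 0.238) and in 5 of 12 fits, without Tumor-CD40 replicate 2 or 3, Tumor-NoCD40 replicate 1, or NoTumor-CD40 replicate 1 or 3 (edgeR, Benjamini-Hochberg adjusted p of 0.0504 to 0.0665). The log2 fold change stayed below 0 in all 19 settings of both comparisons. Beside the fall of Eno3, 9 of 10 B cell genes rose with the agonist in tumor-bearing mice, with the sums given above, and 0 of 14 mature dendritic cell genes did. Langerhans cell genes summed to 34.7 to 49.1 CPM in Tumor-CD40 and 70.7 to 151 in Tumor-NoCD40, with 0 of 3 tested past the threshold, although Cd207 fell in the averaged comparison. Plasmacytoid dendritic cell genes summed to 603 to 746 CPM in Tumor-CD40 and 237 to 347 in Tumor-NoCD40, with 0 of 6 past the threshold there and Bst2, Spib and Irf7 higher in the averaged comparison. The 6 did not move alike in the averaged comparison, where 4 were above 0 and the log2 fold changes ran from −0.52 to 2.09. In tumor-bearing mice Ly6c2 and Chil3 rose among 8 monocyte or neutrophil genes, Siglec1 among 9 macrophage genes and Kdr among 7 fibroblast or endothelial genes, whereas 0 of 6 plasma cell, 8 T cell, 7 cDC2, 4 erythroid and 14 cDC1 genes did. The part of other cells in the Eno3 result was not tested. Of 13 skeletal muscle genes, Myh4 and Mb were at 0 in every library, and the summed level was 28.3 to 54.0 CPM in Tumor-CD40 and 44.0 to 64.7 CPM in Tumor-NoCD40, most of it Tnni2. Myh7 was at 2.47, 3.88 and 3.17 CPM in Tumor-CD40 and at 10.2, 3.31 and 13.6 CPM in Tumor-NoCD40. Without tumor it was at 8.47, 7.15 and 9.24 CPM in NoTumor-CD40 and at 10.3, 3.88 and 3.24 CPM in NoTumor-NoCD40. With the agonist in tumor-bearing mice, the 6 muscle genes tested had log2 fold changes of −1.51 to 0.31. Of these, 1 was above 0 and 0 passed the threshold. Their relation to Eno3 was not tested.

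**Figure D2:**
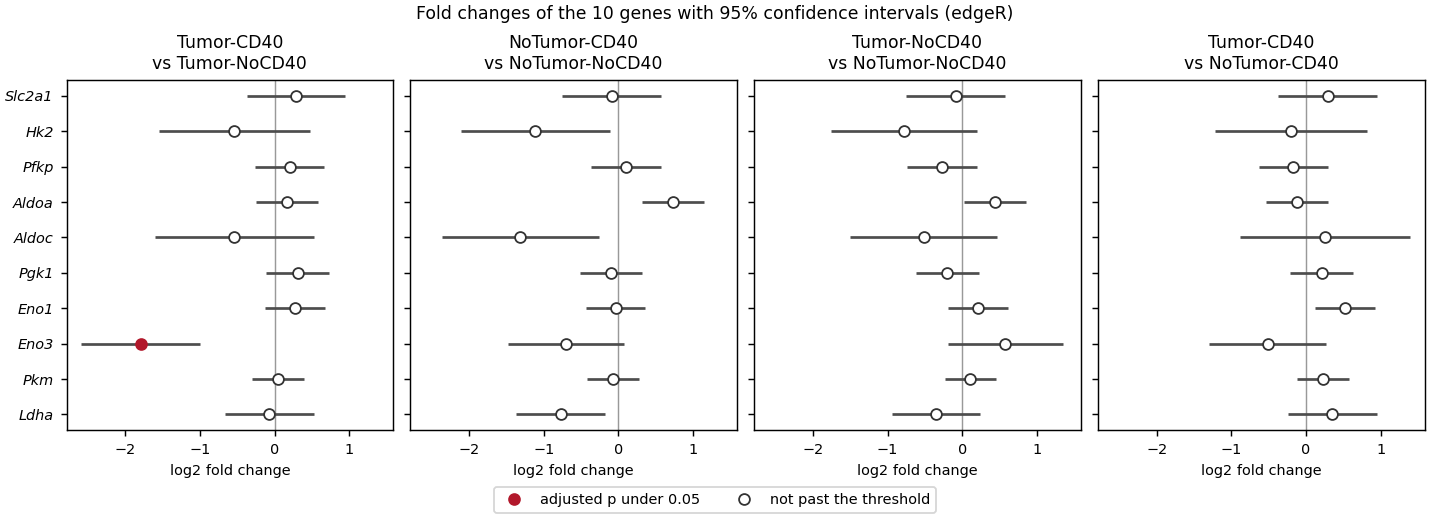
Log2 fold change (horizontal axis) of the 10 genes in the 4 comparisons between groups, one to a panel, each with its 95% interval from edgeR's quasi-likelihood fit; filled points passed an adjusted p of 0.05. Eno3 at −1.80 in Tumor-CD40 against Tumor-NoCD40 is the filled point, and all others are open.

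Among the glycolysis genes, hypoxia-inducible factor and MYC are textbook regulators that bind short core sequences, ACGTG or GCGTG for the first and the E-box CACGTG for the second. Promoter windows of the genes were read from RefSeq on GRCm38.p6, from 250 bases before to 50 bases after each start. All 10 genes matched, with 17 windows. The windows of Eno3 at chr11:70656926-70657225 (plus strand), Ldha at chr7:46845554-46845853 (plus strand), Hk2 at chr6:82774405-82774704 (minus strand) and Aldoa at chr7:126799205-126799504 (minus strand) are printed because the results turn on these genes, by the Eno3 call and by the relation of the other 3 to maturation markers. Capitals mark ACGTG or GCGTG on either strand, which read CACGT or CACGC when on the other strand; CACGTG holds ACGTG on both strands.
Eno3: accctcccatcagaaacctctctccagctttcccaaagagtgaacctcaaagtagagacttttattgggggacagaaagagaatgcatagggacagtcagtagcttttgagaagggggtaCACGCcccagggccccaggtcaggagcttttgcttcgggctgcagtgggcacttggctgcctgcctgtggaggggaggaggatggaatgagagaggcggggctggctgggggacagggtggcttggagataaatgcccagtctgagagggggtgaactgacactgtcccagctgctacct
Ldha: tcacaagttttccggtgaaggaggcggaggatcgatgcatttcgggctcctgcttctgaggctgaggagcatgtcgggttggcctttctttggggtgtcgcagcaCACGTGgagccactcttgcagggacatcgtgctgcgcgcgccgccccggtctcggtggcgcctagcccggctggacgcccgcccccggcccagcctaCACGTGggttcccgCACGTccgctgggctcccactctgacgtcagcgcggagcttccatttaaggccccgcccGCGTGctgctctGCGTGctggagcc
Hk2: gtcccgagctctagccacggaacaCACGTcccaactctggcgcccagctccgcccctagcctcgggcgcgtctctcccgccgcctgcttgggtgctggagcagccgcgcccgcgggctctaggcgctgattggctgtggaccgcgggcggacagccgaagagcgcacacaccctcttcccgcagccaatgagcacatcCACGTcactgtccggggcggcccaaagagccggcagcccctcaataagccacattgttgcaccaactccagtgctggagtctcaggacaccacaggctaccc
Aldoa: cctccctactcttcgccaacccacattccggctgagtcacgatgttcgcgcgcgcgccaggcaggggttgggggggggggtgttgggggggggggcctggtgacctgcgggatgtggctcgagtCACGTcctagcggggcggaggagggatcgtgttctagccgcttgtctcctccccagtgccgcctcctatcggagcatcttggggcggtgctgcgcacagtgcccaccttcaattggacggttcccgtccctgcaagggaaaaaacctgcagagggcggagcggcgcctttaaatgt
The Ldha window held 7 matches to the cores, with CACGTG at 2 places, the Hk2 window held 2, and the Eno3 and Aldoa windows held 1 each. At least 1 core was found in 15 of the 17 windows and in some window of all 10 genes, and CACGTG in those of 1 gene, Ldha. Some windows overlap, and 2 of Aldoa and 2 of Eno1 hold the same cores. The 17 are thus not separate stretches. Among 32851 promoter windows of the same length, 43.8% held either core (19.6% ACGTG and 32.4% GCGTG) and 7.15% held CACGTG. These shares are per window, and no share per gene was taken. These matches are letters in a window and describe no binding.

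Glucose uptake and its first phosphorylation are carried out by the products of Slc2a1, which encodes GLUT1, and Hk2, which encodes hexokinase 2. Slc2a1 (ENSMUSG00000028645, chr4:119108711-119137983, plus strand) was low in all libraries, with 10.95, 16.4 and 20.7 CPM in Tumor-CD40, 14.6, 17.2 and 7.77 CPM in Tumor-NoCD40, 12.1, 13.0 and 14.3 CPM in NoTumor-CD40 and 12.6, 17.5 and 11.8 CPM in NoTumor-NoCD40. All groups overlapped in CPM, and the fold changes for the agonist were 0.29 ± 0.31 with tumor and −0.09 ± 0.31 without (log2). In TPM, NoTumor-CD40 with 7.31, 7.99 and 10.7 lay above NoTumor-NoCD40 with 4.65, 3.05 and 4.73, as did 12.1% of all genes. The short transcript Slc2a1-205, of 434 bases, had the same order and held 51.1% of the gene's TPM, with 5.34, 5.32 and 7.50 TPM in NoTumor-CD40 and 2.52, 0 and 2.08 TPM in NoTumor-NoCD40.

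Hk2 (ENSMUSG00000000628, chr6:82725025-82774454, minus strand) was at 24.7, 28.1 and 26.9 CPM in Tumor-CD40 and at 32.8, 68.1 and 15.1 CPM in Tumor-NoCD40. Without tumor it was at 26.0, 51.7 and 14.2 CPM in NoTumor-CD40 and at 49.2, 78.9 and 71.0 CPM in NoTumor-NoCD40. The Tumor-CD40 libraries lay close together, whereas Tumor-NoCD40 spanned both sides of them, and NoTumor-NoCD40 held the highest value of all 12. With the agonist Hk2 had log2 fold changes of −0.54 ± 0.47 with tumor and −1.11 ± 0.46 without, neither past the threshold (edgeR, Benjamini-Hochberg adjusted p = 0.78 and 0.227). A processed transcript without an annotated coding region, Hk2-202, held 50.8% of its TPM.

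Pfkp encodes the platelet form of phosphofructokinase, the enzyme of the committed step. Pfkp (ENSMUSG00000021196, chr13:6579768-6648777, minus strand) ran from 129 to 167 CPM in Tumor-CD40, 101 to 180 in Tumor-NoCD40, 140 to 195 in NoTumor-CD40 and 143 to 171 in NoTumor-NoCD40. These ranges overlapped in every comparison. Its gene overlaps Pitrm1, which lies on the opposite strand with a mean of 28.0 CPM, and it is not stated whether the counting used strand.

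Aldolase splits the phosphorylated sugar, and Aldoa encodes the form found in most tissues and in muscle. Aldoa (ENSMUSG00000030695, chr7:126795234-126800751, minus strand) was at 541, 499 and 505 CPM in Tumor-CD40 and at 482, 373 and 519 CPM in Tumor-NoCD40. It was at 581, 425 and 670 CPM in NoTumor-CD40 and at 376, 349 and 288 CPM in NoTumor-NoCD40. Without tumor, the 3 agonist libraries lay above the 3 without agonist, as did 11.2% of all genes in this comparison, and with tumor the groups overlapped. The log2 fold change without tumor was 0.73 ± 0.19, with an interval of 0.31 to 1.14, and missed the threshold (edgeR, Benjamini-Hochberg adjusted p = 0.0812). DESeq2 called it (log2 fold change 0.76, Benjamini-Hochberg adjusted p = 0.0149), and so did edgeR without NoTumor-CD40 replicate 2 (0.90, adjusted p = 0.0194) or Tumor-NoCD40 replicate 2 (adjusted p = 0.0399). With tumor the change was 0.17 ± 0.19 (edgeR, Benjamini-Hochberg adjusted p = 0.847), and the interaction was −0.56 ± 0.27 (edgeR, Benjamini-Hochberg adjusted p = 0.525).

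Aldoc encodes the aldolase known from brain. Aldoc (ENSMUSG00000017390, chr11:78322968-78327781, plus strand) was low, at 4.85, 6.89 and 7.29 CPM in Tumor-CD40, 9.83, 14.8 and 3.27 CPM in Tumor-NoCD40, 3.82, 8.76 and 3.37 CPM in NoTumor-CD40 and 18.6, 9.40 and 11.7 CPM in NoTumor-NoCD40. Without tumor the agonist libraries lay below those without, as did 12% of all genes in this comparison, and the log2 fold change of −1.31 ± 0.49 did not pass (edgeR, Benjamini-Hochberg adjusted p = 0.191). In TPM the same groups overlapped. Processed transcripts without a coding annotation, Aldoc-203, Aldoc-206 and Aldoc-204, held 42.9%, 28.5% and 5.46% of its TPM, so that its level was mostly not that of coding transcripts.

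Pgk1 encodes phosphoglycerate kinase, the first step that yields ATP. Pgk1 (ENSMUSG00000062070, chrX:106187100-106203699, plus strand) was at 256, 235 and 220 CPM in Tumor-CD40 and at 205, 194 and 176 CPM in Tumor-NoCD40. These groups did not overlap, as was the case in the same direction for 6.5% of all genes, but the log2 fold change of 0.31 ± 0.20 was small and did not pass (edgeR, Benjamini-Hochberg adjusted p = 0.661). Without tumor, NoTumor-CD40 ran from 152 to 248 CPM and NoTumor-NoCD40 from 171 to 251 CPM. Pgk1 has 4 near-identical copies (at least 95% identity over at least 200 bases), of which 3 had counts. They took 23.5% to 41.8% of the counts of Pgk1 and its copies together, Gm5537 most of all with a mean of 60.5 CPM, so the level of Pgk1 is uncertain.

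Eno1 (ENSMUSG00000063524, chr4:150236721-150248879, plus strand) was at 310, 234 and 288 CPM in Tumor-CD40 and at 228, 224 and 236 CPM in Tumor-NoCD40. Without tumor it was at 230, 196 and 152 CPM in NoTumor-CD40 and at 180, 240 and 174 CPM in NoTumor-NoCD40. Tumor-CD40 lay above NoTumor-CD40 in every library in CPM, as did 6.68% of all genes, with a log2 fold change of 0.53 ± 0.19 that did not pass (edgeR, Benjamini-Hochberg adjusted p = 0.403), where 0.199% of all genes passed. In TPM these groups overlapped, at 144 to 245 in Tumor-CD40 and 133 to 183 in NoTumor-CD40. With the agonist the change was 0.28 ± 0.19 in tumor-bearing mice, in the opposite direction to that of Eno3.

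Pkm encodes pyruvate kinase, which makes pyruvate, and its M1 and M2 forms arise by the use of either of a pair of exons. Pkm (ENSMUSG00000032294, chr9:59656368-59679375, plus strand) was the steadiest gene of the group, at 511 to 554 CPM in Tumor-CD40, 473 to 575 in Tumor-NoCD40, 417 to 483 in NoTumor-CD40 and 405 to 556 in NoTumor-NoCD40. The agonist's log2 fold changes were 0.05 ± 0.16 with tumor and −0.07 ± 0.16 without. Tumor-CD40 lay above NoTumor-CD40 in every library in CPM, as did 6.68% of all genes, with a change of 0.23 ± 0.16 that did not pass (edgeR, Benjamini-Hochberg adjusted p = 0.676). In TPM these groups overlapped, at 149 to 203 in Tumor-CD40 and 149 to 177 in NoTumor-CD40. The alternative exons are printed because they define the forms. The M1 exon lies at chr9:59675029-59675195 and the M2 exon at chr9:59675568-59675734 on the plus strand of GRCm38. Both are 167 bases long, and capitals mark the 64 bases that differ.
M1 exon: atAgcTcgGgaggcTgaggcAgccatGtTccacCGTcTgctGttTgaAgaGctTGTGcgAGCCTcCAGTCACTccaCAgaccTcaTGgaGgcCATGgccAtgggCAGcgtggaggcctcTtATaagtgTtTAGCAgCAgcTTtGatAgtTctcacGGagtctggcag
M2 exon: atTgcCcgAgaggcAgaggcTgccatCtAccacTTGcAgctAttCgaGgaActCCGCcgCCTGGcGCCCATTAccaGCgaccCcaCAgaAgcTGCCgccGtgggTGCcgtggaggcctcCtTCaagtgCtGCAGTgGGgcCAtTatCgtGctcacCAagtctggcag
The M2 transcript Pkm-201 held 53.1% of the gene's TPM and the M1 transcript Pkm-202 held 16.7%, while Pkm-211 held 28.4% and was counted in neither form. Pkm-201 is 2432 bases long and Pkm-202 is 2041, so they also differ outside these exons. Their TPM can reflect those differences as well.

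Ldha encodes the lactate dehydrogenase subunit that favours lactate formation. Ldha (ENSMUSG00000063229, chr7:46841475-46855627, plus strand) was at 403, 307 and 318 CPM in Tumor-CD40 and at 316, 485 and 278 CPM in Tumor-NoCD40. It was at 282, 367 and 157 CPM in NoTumor-CD40 and at 440, 532 and 409 CPM in NoTumor-NoCD40. Without tumor all 3 agonist libraries were below those without agonist in CPM, as were 12% of all genes in this comparison, while with tumor the groups overlapped. In TPM the groups without tumor overlapped as well, at 75.2 to 166 in NoTumor-CD40 and 160 to 198 in NoTumor-NoCD40. The log2 fold change was −0.78 ± 0.28 without tumor (edgeR, Benjamini-Hochberg adjusted p = 0.174) and −0.07 ± 0.28 with tumor, and neither passed; without NoTumor-CD40 replicate 2 the first was −1.07 and passed (edgeR, Benjamini-Hochberg adjusted p = 0.0457).

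Read over all 10 genes, the comparisons gave few and mixed differences. With the agonist and a tumor, 6 of 10 had log2 fold changes above 0 with a median of 0.11, against 48.1% of all genes and a median of −0.02. At an unadjusted p under 0.05 it was 1 of 10 there, Eno3, against 9.96% of all genes. Without tumor, 2 of 10 were above 0 with a median of −0.10, against 47.7% and a median of −0.04 over all genes. In that comparison 0 of 10 passed with edgeR, where 1.44% of all genes did; 4 of 10 had an unadjusted p under 0.05 (Aldoa, Ldha, Aldoc and Hk2), as did 18.4% of all genes, and DESeq2 called 1. Averaged over both tumor states, 5 of 10 (Eno3, Aldoa, Aldoc, Hk2 and Ldha) had an unadjusted p under 0.05, as did 17.5% of all genes, and Eno3 alone passed after adjustment in edgeR. Aldoa had a change of 0.45 ± 0.14 there and Aldoc of −0.93 ± 0.35. Aldoa passed without NoTumor-CD40 replicate 2 (0.53, edgeR, Benjamini-Hochberg adjusted p = 0.0329) and Aldoc without Tumor-NoCD40 replicate 3 (−1.13, adjusted p = 0.0495). In none of the 10 genes did the 6 agonist libraries lie wholly above or below the 6 without, as 1.33% and 0.398% of all genes did.

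The tumor itself was compared at each level of agonist. For Tumor-NoCD40 against NoTumor-NoCD40, edgeR called 0 of 10 and 0 of all genes (0%), while 1 of 10 (Aldoa) and 1053 genes (5.82%) had an unadjusted p under 0.05 and DESeq2 called 29. Aldoa had a log2 fold change of 0.44 ± 0.19 and Hk2 of −0.78 ± 0.46 there. In TPM these were the genes whose groups did not overlap, with Aldoa at 221, 183 and 291 TPM in Tumor-NoCD40 and 178, 163 and 151 TPM in NoTumor-NoCD40, and Hk2 at 8.34, 8.21 and 1.69 TPM in Tumor-NoCD40 and 8.46, 13.2 and 18.6 TPM in NoTumor-NoCD40. Among all genes, 4.95% lay higher and 3.81% lower in this way. In CPM all 10 genes overlapped between these groups, whereas 4.06% of all genes lay apart as higher and 4.92% as lower. For Tumor-CD40 against NoTumor-CD40, 0 of 10 passed with edgeR and 1 had an unadjusted p under 0.05, Eno1, against 9.32% of all genes. In this comparison Eno3 had a log2 fold change of −0.51 ± 0.37. The interaction of agonist and tumor gave 0 of 10 with edgeR, 0 of 10 at an unadjusted p under 0.05 against 9.8% of all genes, and 0 calls among all genes (DESeq2 called 24 genes).

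**Figure D3:**
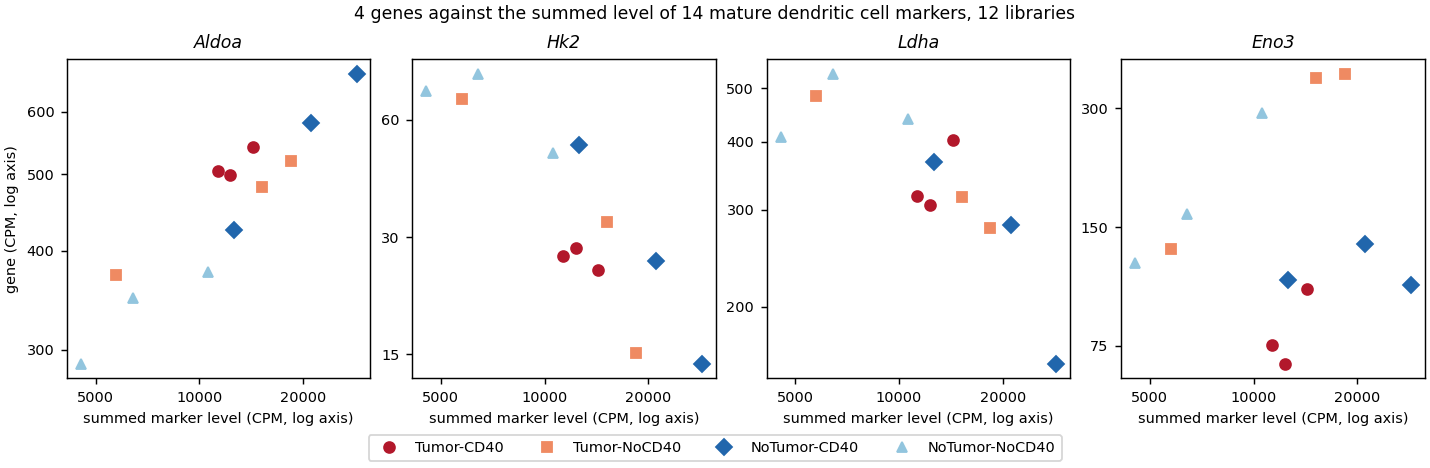
CPM of Aldoa, Hk2, Ldha and Eno3 (vertical axes, logarithmic) against the summed CPM of the 14 mature dendritic cell genes (horizontal axis, logarithmic) in the 12 libraries, marked by group. Aldoa is higher and Hk2 and Ldha are lower in libraries with more mature dendritic cell transcripts, while Eno3 shows separate courses with and without the agonist.

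Some of the genes, 4 in number, moved with the markers of mature dendritic cells across the 12 libraries. Pearson's r between the log2 CPM of a gene and the log2 of the summed mature markers was 0.94 for Aldoa, −0.89 for Hk2, −0.82 for Ldha and −0.77 for Aldoc (Spearman's rho 0.90, −0.85, −0.86 and −0.80). Without the 2 libraries farthest from the median marker sum, r was 0.86, −0.84, −0.87 and −0.72 in the same order of genes. The direction was the same among the 6 agonist libraries (0.87, −0.71, −0.83 and −0.91) and among the 6 without (0.94, −0.91, −0.80 and −0.57). The points share depth scaling and the composition of the library, and these values are descriptions with no test. How many of all genes moved as closely with these markers was not counted. The relation is therefore not shown to be particular to glycolysis genes.

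The other genes differed. For Eno3, r was 0.10 over all 12 libraries, 0.62 among the 6 with agonist and 0.98 among the 6 without, where the libraries with 15200 and 18400 CPM of mature markers in Tumor-NoCD40 and that with 10600 in NoTumor-NoCD40 were also the 3 with the most Eno3. For Slc2a1, Pfkp, Pgk1, Eno1 and Pkm, r over all 12 lay between −0.32 and −0.02, but it was farther from 0 in subsets of the libraries. Without the 2 farthest libraries it was −0.64 for Slc2a1 and −0.72 for Pkm, and between −0.34 and 0.11 for the other 3. Among the 6 agonist libraries it was −0.84 for Pkm, −0.67 for Eno1, −0.62 for Pgk1, −0.37 for Slc2a1 and 0.20 for Pfkp. Among the 6 without it was −0.91 for Pfkp, −0.56 for Slc2a1, 0.39 for Eno1, 0.05 for Pkm and −0.01 for Pgk1. Against the sum of the 14 cDC1 genes, r over all 12 was 0.96 for Hk2, 0.79 for Aldoc, 0.76 for Ldha, 0.65 for Pfkp and −0.82 for Aldoa, and between −0.19 and 0.41 for the other 5. Of the 14 mature markers, 6 rose with the agonist without tumor and 0 did with tumor (edgeR, with the percentages of all genes given above). The part of these markers in the values of Aldoa, Hk2, Ldha and Aldoc was not tested.

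Among the genes themselves, the strongest relations over the 12 libraries were those of Hk2 with Aldoa (r = −0.91), Hk2 with Ldha (0.85), Hk2 with Aldoc (0.84), Aldoa with Aldoc (−0.81), Aldoa with Ldha (−0.80) and Eno1 with Pkm (0.78), all in log2 CPM. The genes most like each gene over the 12 libraries by Pearson's r were sought among 8730 other genes whose mean CPM was 10 or more. For Eno3 they were Fxyd2 (0.95), Galnt12 (0.95) and Mthfd2 (0.95). For Hk2 they were Zfp710 (0.99), H2-DMb1 (0.99) and Tmem50b (0.98), for Aldoa Tubb5 (0.98), Il4ra (0.98) and Ube2r2 (0.98), and for Ldha Sfxn1 (0.98), Rpl32 (0.98) and Rap1a (0.98). The closest genes were Cherp for Slc2a1 (0.86), Rbms1 for Pfkp (0.93), Bmyc for Aldoc (0.95), Prpf31 for Pgk1 (0.89), Bysl for Eno1 (0.91) and Top1 for Pkm (0.88).

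**Figure D4:**
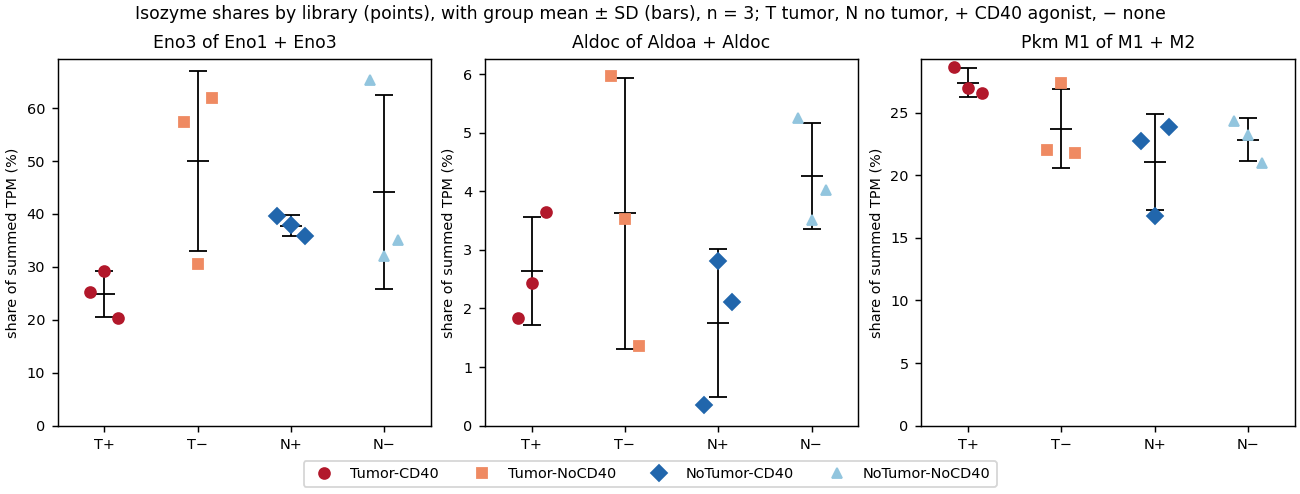
Share in percent of TPM (vertical axis) taken by Eno3 of Eno1 and Eno3, by Aldoc of Aldoa and Aldoc, and by the M1 form of M1 and M2 of Pkm, with points for libraries and bars for group means with SD, by group, with T+, T−, N+ and N− as the groups with tumor and agonist, tumor alone, agonist alone and neither. Eno3 takes 20.4% to 29.1% in Tumor-CD40, while 2 libraries of Tumor-NoCD40 and 1 of NoTumor-NoCD40 lie above 50%.

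Isozyme use was compared as log2 ratios of TPM within a library. Eno3 made up 25.3%, 29.1% and 20.4% of Eno1 plus Eno3 in Tumor-CD40, 57.4%, 30.5% and 61.9% in Tumor-NoCD40, 39.6%, 38.0% and 35.8% in NoTumor-CD40 and 65.3%, 31.97% and 35.1% in NoTumor-NoCD40. Tumor-CD40 was below all other libraries, and the groups without agonist had the widest spread. Transcripts annotated as retained introns held 53.6% of the TPM of Eno1 and 22.5% of that of Eno3. Over protein coding transcripts alone, Eno3 made up 35.3%, 39.9% and 30% in Tumor-CD40, 68.8%, 40.7% and 77.2% in Tumor-NoCD40, 50.9%, 43.7% and 48.8% in NoTumor-CD40 and 72.0%, 42.6% and 49.4% in NoTumor-NoCD40, with Tumor-CD40 again the lowest. The mean log2 ratio of Eno3 to Eno1 was −1.16 in the 6 agonist libraries and −0.19 in the 6 without, and this difference of −0.98 did not pass (exact permutation test within tumor state, two-sided p = 0.115, Benjamini-Hochberg adjusted over 14 ratio tests 0.28). Coding sequences of Eno3 and Eno1 are 76.7% identical, and those of Aldoc and Aldoa 75.6%.

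Aldoc made up 2.64% ± 0.925 of Aldoa plus Aldoc in Tumor-CD40, 3.62% ± 2.31 in Tumor-NoCD40, 1.76% ± 1.27 in NoTumor-CD40 and 4.26% ± 0.901 in NoTumor-NoCD40 (SD, n = 3 each). The agonist's difference in log2 ratio was −1.02 (exact permutation test, p = 0.115, adjusted 0.28). Aldoa was thus the main aldolase transcript in every library. Of Hk1 plus Hk2, Hk2 held 32.4% ± 14.4 in Tumor-CD40, 30.8% ± 20.2 in Tumor-NoCD40, 33.7% ± 10.8 in NoTumor-CD40 and 59.3% ± 5.52 in NoTumor-NoCD40. Ldha held a mean of 97.3% to 99.4% of Ldha plus Ldhb by group, and Pfkp 69.1% to 82.2% of Pfkp plus Pfkl. Without NoTumor-CD40 replicate 2, the difference of Pfkp to Pfkl passed for the agonist (0.82) and the tumor (−0.85), each with an adjusted p of 0.035 in the exact permutation test. Slc2a1 held 71.0% ± 12.7 of Slc2a1 plus Slc2a3 in Tumor-CD40, 55.6% ± 17.4 in Tumor-NoCD40, 59.3% ± 9.20 in NoTumor-CD40 and 81.1% ± 4.91 in NoTumor-NoCD40. The M1 form of Pkm held 27.4% ± 1.13 of M1 plus M2 in Tumor-CD40, 23.7% ± 3.17 in Tumor-NoCD40, 21.1% ± 3.84 in NoTumor-CD40 and 22.9% ± 1.70 in NoTumor-NoCD40. None of the 14 ratio tests passed, but a single ratio could not have passed, since the smallest p the design allows, 0.005, becomes 0.07 when adjusted over the 14. The lowest p was that of the tumor for Pkm M1 to M2 (difference 0.29, exact permutation test, two-sided p = 0.06, adjusted 0.28).

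The rest of the pathway was followed in lists of genes drawn up by function. Of 18 other glycolysis enzyme genes, 11 could be tested, and 0 passed in any comparison. Among all genes, between 0% and 2.51% passed by comparison. For lists this short, here and below, 0 calls therefore say little about the pathway. Pgk2 and Ldhc were at 0 in every library. Gapdh, the dehydrogenase between the aldolase and kinase steps, was the most abundant glycolysis transcript measured, at 725, 730 and 715 TPM in Tumor-CD40, 596, 617 and 803 in Tumor-NoCD40, 653, 626 and 825 in NoTumor-CD40 and 518, 564 and 491 in NoTumor-NoCD40. Its log2 fold change was 0.31 ± 0.16 for the tumor without agonist. Hk1, the widespread hexokinase, had a change of 0.52 ± 0.21 with the agonist without tumor, and Pfkl, the liver form of phosphofructokinase, of 0.53 ± 0.16 for the tumor with agonist (edgeR, Benjamini-Hochberg adjusted p = 0.22 and 0.3). Eno2, the neuronal enolase, had a change of −0.60 ± 0.40 with the agonist in tumor-bearing mice but of 0.67 ± 0.40 without tumor. Averaged over both tumor states its change was 0.04 ± 0.28. None of the 9 tested glucose and lactate transporter genes passed. Slc2a3, which encodes GLUT3, was at 1.70, 2.07 and 7.58 TPM in Tumor-CD40, 1.80, 2.13 and 5.04 in Tumor-NoCD40, 4.43, 4.01 and 11.2 in NoTumor-CD40 and 0.715, 0.885 and 1.26 in NoTumor-NoCD40. In counts its log2 fold change with the agonist without tumor was −0.05 ± 0.32. For the tumor with agonist it was 1.08 ± 0.30 and did not pass (edgeR, Benjamini-Hochberg adjusted p = 0.249). Both are unlike these TPM, which were higher in NoTumor-CD40 than in NoTumor-NoCD40 and on the whole lower in Tumor-CD40 than in NoTumor-CD40. The direction of Slc2a3 is thus uncertain, and the shares of Slc2a1 plus Slc2a3 given above rest on these TPM.

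The 4 Pfkfb genes and Tigar encode enzymes that make or remove a potent activator of phosphofructokinase, and 0 of these 5 passed. Pfkfb3, the form known for a high kinase activity, was at 165, 238 and 224 TPM in Tumor-CD40, 178, 95.5 and 329 in Tumor-NoCD40, 229, 224 and 494 in NoTumor-CD40 and 146, 91.3 and 105 in NoTumor-NoCD40. Its log2 fold change with the agonist was 1.36 ± 0.39 without tumor (edgeR, Benjamini-Hochberg adjusted p = 0.104) and 0.07 ± 0.38 with tumor. None of 12 tested genes of pyruvate entry into mitochondria and none of 7 pentose phosphate genes passed in any comparison. Pdk1, a kinase that restrains pyruvate dehydrogenase, had a change of −0.73 and Tkt, transketolase, of −0.58 with the agonist without tumor. With tumor the agonist's changes were 0.28 for Pdk1 and −0.16 for Tkt.

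Of 10 transcription factors known for glycolysis genes, Foxk1 rose with the agonist without tumor (0.85 ± 0.19, edgeR, Benjamini-Hochberg adjusted p = 0.0401) and over both tumor states (0.61 ± 0.13, adjusted p = 0.0266). Among all genes, 1.44% and 2.51% passed in these comparisons. Foxk1 was at 4.47, 6.04 and 7.04 TPM in Tumor-CD40, 4.15, 4.45 and 4.97 in Tumor-NoCD40, 5.99, 6.35 and 11.1 in NoTumor-CD40 and 3.46, 3.62 and 4.56 in NoTumor-NoCD40. Hif1a, the oxygen-regulated subunit of hypoxia-inducible factor, had a change of 0.50 without tumor and did not pass (edgeR, Benjamini-Hochberg adjusted p = 0.14). Myc was at 8.64, 8.20 and 15.2 TPM in Tumor-CD40, 4.29, 7.17 and 8.32 in Tumor-NoCD40, 4.27, 7.67 and 3.67 in NoTumor-CD40 and 5.81, 5.81 and 8.82 in NoTumor-NoCD40. Its change was 0.65 ± 0.30 with the agonist in tumor-bearing mice and 0.94 ± 0.30 for the tumor with agonist, neither past the threshold (edgeR, Benjamini-Hochberg adjusted p = 0.491 and 0.343).

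Of 17 other hypoxia-inducible genes, Ndrg1 rose with the agonist without tumor (2.13 ± 0.32, edgeR, Benjamini-Hochberg adjusted p = 0.00659), and Ndrg1 (1.52 ± 0.22, adjusted p = 0.0023) and Ddit4 (0.83 ± 0.20, adjusted p = 0.0441) rose over both tumor states. The shares of all genes that passed were again 1.44% without tumor and 2.51% over both states. Ndrg1 was at 136, 158 and 130 TPM in Tumor-CD40, 64.1, 51.9 and 131 in Tumor-NoCD40, 143, 141 and 289 in NoTumor-CD40 and 35.5, 28.8 and 58.1 in NoTumor-NoCD40. All 6 agonist libraries lay above the 6 without agonist, but for the Tumor-NoCD40 library with 131 TPM, which exceeded the lowest of Tumor-CD40. Ddit4, an inhibitor of mTOR signaling, was at 6.33, 8.45 and 11.9 TPM in Tumor-CD40, 4.11, 4.47 and 8.89 in Tumor-NoCD40, 3.76, 5.22 and 8.09 in NoTumor-CD40 and 2.35, 2.62 and 2.62 in NoTumor-NoCD40. The call of Ndrg1 over both states was kept in all 19 other settings, whereas the call without tumor was lost in 4 of 19 (both limma fits, and without NoTumor-NoCD40 replicate 2 or 3, with Benjamini-Hochberg adjusted p up to 0.0739), that of Ddit4 in 11, and those of Foxk1 in 13 without tumor and in 9 over both states. The median change of the list over both states was −0.15, with 8 of 17 above 0, beside a median of −0.03 and 46.8% over all genes.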

How the data were processed

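RNA-seq was measured in 12 cDC1 libraries, 3 per group, made from total RNA (Qiagen RNeasy Plus Micro) and, per the labels' protocols, prepared with NEBNext Ultra II Directional reagents. Transcripts were quantified with Salmon on mm10, per the submitters' processing notes; its version and annotation are not given in the sources used here. The authors deposited expected counts per transcript, not normalized, and TPM per transcript, scaled for length and depth. With GENCODE M21 (GRCm38), 136176 of 136288 transcripts were assigned to 53458 genes and summed; the rest held 0.0279% to 0.0457% of a library's counts. Aldoa has 2 gene identifiers; the one with counts in use is given, and the other held at most 0.5 TPM.

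Expected counts were rounded to whole numbers. Tests used edgeR 4.0.16 in R 4.3.3: filterByExpr (minimum count 10, total 15), TMM factors 0.936 to 1.074, a 4-group model over 12 libraries (8 residual df), two-sided quasi-likelihood tests with legacy = FALSE, Benjamini-Hochberg adjustment, threshold 0.05. The comparisons were the agonist with and without tumor, the tumor with and without agonist, the agonist averaged over tumor states, and the interaction. Ratios of TPM used exact permutation tests over 400 arrangements within groups of the other factor. Near copies were found with BLAST+ 2.17.0+. Alternatives were DESeq2 1.42.0, limma 3.58.1 on log2(TPM + 1) and log2(TPM + 0.1) over 13790 genes, RLE, no filter, legacy = TRUE, a replicate block and leaving out each library. Pathway genes with values were called genes, the 2 smallest p-values of a list in a comparison in any comparison. Statistics were tested on simulated data. The genes and lists were chosen with earlier results of these data known. Counting precision follows from 1637 to 10119 counts per library for Eno3, 85 to 487 for Aldoc and 214 to 523 for Slc2a1.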

Additional observations from a re-analysis of the deposited data

How the results depend on the processing

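Of 1140 alternative values for the 10 genes in 6 comparisons, 1070 kept their direction and their side of the threshold, 45 turned, 18 fell short of the threshold and 7 newly passed. The 18 all belonged to the Eno3 calls, which were lost in 11 of 19 settings in tumor-bearing mice and in 7 of 19 averaged. The remaining results were not called in the main fit, so that keeping their side of the threshold says little. The number of genes called in tumor-bearing mice with the agonist was 200 without a filter, 337 with DESeq2, 61 with legacy = TRUE, 22 and 14 with limma on log2(TPM + 1) and log2(TPM + 0.1), and 229 with the replicate block. Without tumor it was 401 without a filter, 924 with DESeq2, 46 and 42 with limma, and 48 with the block. For Tumor-NoCD40 against NoTumor-NoCD40 it was 1 without a filter, 29 with DESeq2, and 5 and 2 with limma. For Tumor-CD40 against NoTumor-CD40 it was 89, 192, 8 and 3 in the same settings, 0 with legacy = TRUE and 83 with the block. For the agonist averaged over tumor states DESeq2 called 1028 and limma 147 and 144, and for the interaction DESeq2 called 24 and limma on log2(TPM + 1) 3. Of the 10 genes, 0 were called in tumor-bearing mice with legacy = TRUE and both limma fits, DESeq2 called 1 without tumor (Aldoa) and 2 averaged (Eno3 and Aldoa), and both limma fits 0 averaged.

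Leaving out 1 library, genes called ran from 26 to 226 (agonist with tumor), 22 to 947 (without tumor), 0 to 2 and 0 to 71 (tumor without and with agonist), 221 to 870 (averaged) and 0 to 0 (interaction). Of the 10 genes, 0 to 1, 0 to 2, 0 to 0, 0 to 0, 0 to 2 and 0 to 0 were called in the same order. Log2 ratio differences ran from −1.268 to −0.659 (Eno3/Eno1, agonist), −0.458 to 0.042 (tumor), −1.323 to −0.551 and −0.202 to 0.571 (Aldoc/Aldoa), −0.542 to −0.002 and −0.745 to −0.212 (Slc2a1/Slc2a3), −1.118 to −0.309 and −1.359 to −0.549 (Hk2/Hk1), 0.317 to 0.821 and −0.851 to −0.346 (Pfkp/Pfkl), −1.521 to −0.473 and −1.21 to −0.161 (Ldha/Ldhb), and 0.001 to 0.162 and 0.191 to 0.351 (Pkm M1/M2), each for the agonist and then the tumor.

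The difference of Slc2a1/Slc2a3 with the agonist turned to 0.006 with ratios of expected counts, 0.658 over protein coding transcripts (like the settings for the pathway genes, chosen after seeing the data) and 0.064 with prefix pairs, and that of Aldoc/Aldoa with the tumor to −0.337 and −0.988 in the first 2 of these settings. With limma on both TPM scales, Ldha turned to 0.029 in tumor-bearing mice with the agonist, and without tumor Slc2a1 turned to 0.912 and 1.054, Pgk1 to 0.004, Eno1 to 0.045 and Pkm to 0.131 and 0.132. Aldoc turned to 0.025 and 0.012 for the tumor without agonist, Slc2a1 to −0.096 and −0.124 for the tumor with agonist, Pkm to 0.091 and 0.092 averaged (0.011 with RLE and DESeq2) and to −0.079 for the interaction. Leaving out 1 library turned 15 small changes, none of them called: Aldoa (−0.278 to 0.056) and Hk2 (−0.529 to 0.415) for the tumor with agonist; Hk2 (−0.921 to 0.158), Ldha (−0.219 to 0.203) and Pkm (−0.011 to 0.122) for the agonist with tumor; Eno1 (−0.163 to 0.132), Pgk1 (−0.253 to 0.077), Pkm (−0.185 to 0.052) and Slc2a1 (−0.197 to 0.117) without tumor; Pkm (−0.001 to 0.246) and Slc2a1 (−0.339 to 0.191) for the tumor without agonist; Pkm (−0.06 to 0.05) and Slc2a1 (−0.033 to 0.22) averaged; and Pfkp (−0.047 to 0.414) and Pkm (−0.006 to 0.251) for the interaction. The causes were not tested.

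The titles carry date-like prefixes whose meaning is not stated. Of 15 pairs of libraries from different groups with the same prefix, 13 deviated together from their group means with r above 0.1 (−0.006 to 0.656, 8739 genes). The other 2 pairs fell short of 0.1. Pairs from different groups with different prefixes had r of −0.604 to 0.347. The prefix thus went with shared deviations in most pairs. It was not taken as pairing in the main tests because the labels give it no meaning, so their p-values do not account for these shared deviations. NoTumor-NoCD40 replicate 3 shares its prefix with no other library. With the prefix as a replicate block Eno3 had a log2 fold change of −1.73 with the agonist in tumor-bearing mice (edgeR, Benjamini-Hochberg adjusted p = 0.00507) and −1.33 averaged (0.00367), and in 5 of 5 same-prefix pairs it was lower with the agonist. Foxk1 was not called without tumor with the block (0.78, adjusted p = 0.106). Counting error at the lowest count was 10.8% for Aldoc and 6.84% for Slc2a1, below their spread between libraries (55.5% and 24.7%).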
